A study of Homo sapiens with 10 samples.

Results

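Epithelial junction and mesenchymal genes were followed in cultured human gastric cancer cells sorted into a side population and a non-side population, and in unsorted cells. The genes were 41 listed by their role: 28 epithelial (cadherins, keratins, tight junction and desmosome genes and their regulators) and 13 mesenchymal (N-cadherin, cytoskeletal, matrix and secreted genes, and transcription factors). Each was represented by 1 probe set, the one of highest mean intensity among those that name exactly 1 gene. Values were obtained for 39 of the 41 members, out of 19775 genes in all. F11R and ESRP2, the other two, are not analysed here because no probe set carried their symbol alone.

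The data came from 10 single-channel arrays hybridised with biotin-labelled total RNA, 4 each of side population and non-side population cells (lettered a, b, c and d) and 2 of unsorted cells (lettered a and b). The study set out to characterise the side population of gastric cancer lines, which is the small group of cells that keeps little Hoechst dye and is separated from the dye-bright cells by flow cytometry. Both AGS and MKN 45, established gastric carcinoma lines, stand in the origin label of each of the 10 arrays, while the source label names AGS on 8 arrays and no line on side population replicates a and b. The labels name no genotype or treatment that separates the groups. All cells grew in RPMI medium with serum and were harvested with trypsin. Against unsorted cells, the sort and its handling cannot be told apart from a difference between cell populations. Since no label says that replicates were separate cultures, the p-values reflect only how far these samples differ among themselves, which may be a technical spread. In RNA from a whole population, fewer cells of a type and less RNA per cell cannot be told apart.

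Epithelial cells are held together by adherens junctions, built on cadherins, by tight junctions, which seal the space between cells, and by desmosomes, which tie the keratin filaments of neighbouring cells to each other. In an epithelial-mesenchymal transition, transcription factors of the SNAIL, ZEB and TWIST families repress many of these genes, and cells gain vimentin, N-cadherin and matrix proteins. CDH1, which encodes E-cadherin, differs among gastric cancer lines and is mutated or silent in several of them.

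The arrays were alike in scale but not in every control. Median intensity over all probe sets lay between 58.7 and 85.4. The ratio of 3' to 5' intensity was 3.34 for the actin control and 1.87 for GAPDH on side population replicate a, against 0.987 to 1.28 and 0.864 to 1.06 on the other 9 arrays. The 5' control for 18S ribosomal RNA was low on 4 arrays, with 851.2 on side population array d, 563 on non-side population array c, and 274.6 and 828.3 on the unsorted arrays, against 22182.4 to 33704 on the other 6 arrays. Both unsorted arrays therefore had a low 18S signal, as did 2 of the 8 sorted arrays. The 8 markers of fibroblasts and stroma summed to 1238.8 to 2390.4 in side population cells, 1297.5 to 2446.7 in non-side population cells and 3143.6 to 3292.5 in unsorted cells, with LUM, POSTN and COL3A1 under the array median on all 10 arrays. Most of the unsorted sum was PDGFRA, which read 671.2 to 1456.9 in side population cells, 559.2 to 1405.3 in non-side population cells and 2306 and 2555.5 in unsorted cells. DCN was at 26.9 to 120.4 and lowest in unsorted replicate a, and ACTA2 overlapped among all 3 groups. The part of these differences in the results below was not tested, except where a value is given.

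Fold changes below are differences of mean log2(intensity + 6.1), where 6.1 is the 10th percentile of all intensities, with the standard error of a limma fit to all 10 arrays. Genes at or above the median mean level, an intensity of 149, were tested, and a gene was called at a Benjamini-Hochberg adjusted p under 0.05 over 9888 genes. Of the 39 members, 28 were tested (23 epithelial and 5 mesenchymal). The 11 below the filter were CDH3, KRT20, CLDN3, CDH2, FN1, SPARC, COL1A2, SNAI2, ZEB1, ZEB2 and TWIST1, and 8 of these are mesenchymal.

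Between the side population and the non-side population no junction, keratin or mesenchymal gene passed the test. Of the 28 tested members 0 were called by limma, against 0 of 9888 genes (0%), and 0 members had an unadjusted p under 0.05, against 430 genes (4.35%). DSC2 alone had groups that did not overlap, 1 of 28 members against 1.59% of all genes tested in either direction and 1.01% higher (0.576% lower). The epithelial members were positive (higher in the side population) in 14 of 23 cases with a median log2 fold change of 0.23, and the mesenchymal members in 2 of 5 with a median of -0.23. Over all genes tested 57.3% were positive, with a median of 0.04.

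The side population against unsorted cells also gave 0 called members of 28, against 232 of 9888 genes (2.35%) by limma. An unadjusted p under 0.05 was reached by 5 members, against 17.1% of all genes tested. The groups did not overlap for 13 members, 46.4% of the 28, with 5 higher and 8 lower in the side population, while 36.7% of all genes tested did not overlap (21.3% higher and 15.4% lower). All 13 were epithelial genes, but 23 of the 28 tested members were epithelial and only 5 mesenchymal. The median log2 fold change was -0.28 for the epithelial members, 0.19 for the mesenchymal members and 0.04 for all genes tested.

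The non-side population against unsorted cells gave 1 called member, DSC2, which fell. Over all genes tested 348 were called (3.52%), and 1.15% were called lower. An unadjusted p under 0.05 was reached by 8 members, all among the 23 epithelial ones tested, against 19.5% of all genes tested. The groups did not overlap for 10 members (35.7%, 3 higher and 7 lower), close to the 31.9% of all genes tested (15.6% higher and 16.3% lower). The median log2 fold change was -0.22 for the epithelial members, 0.42 for the mesenchymal members and -0.01 for all genes tested. The side and non-side populations were set against the same 2 unsorted arrays, so these comparisons share their control samples.

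**Figure D1:**
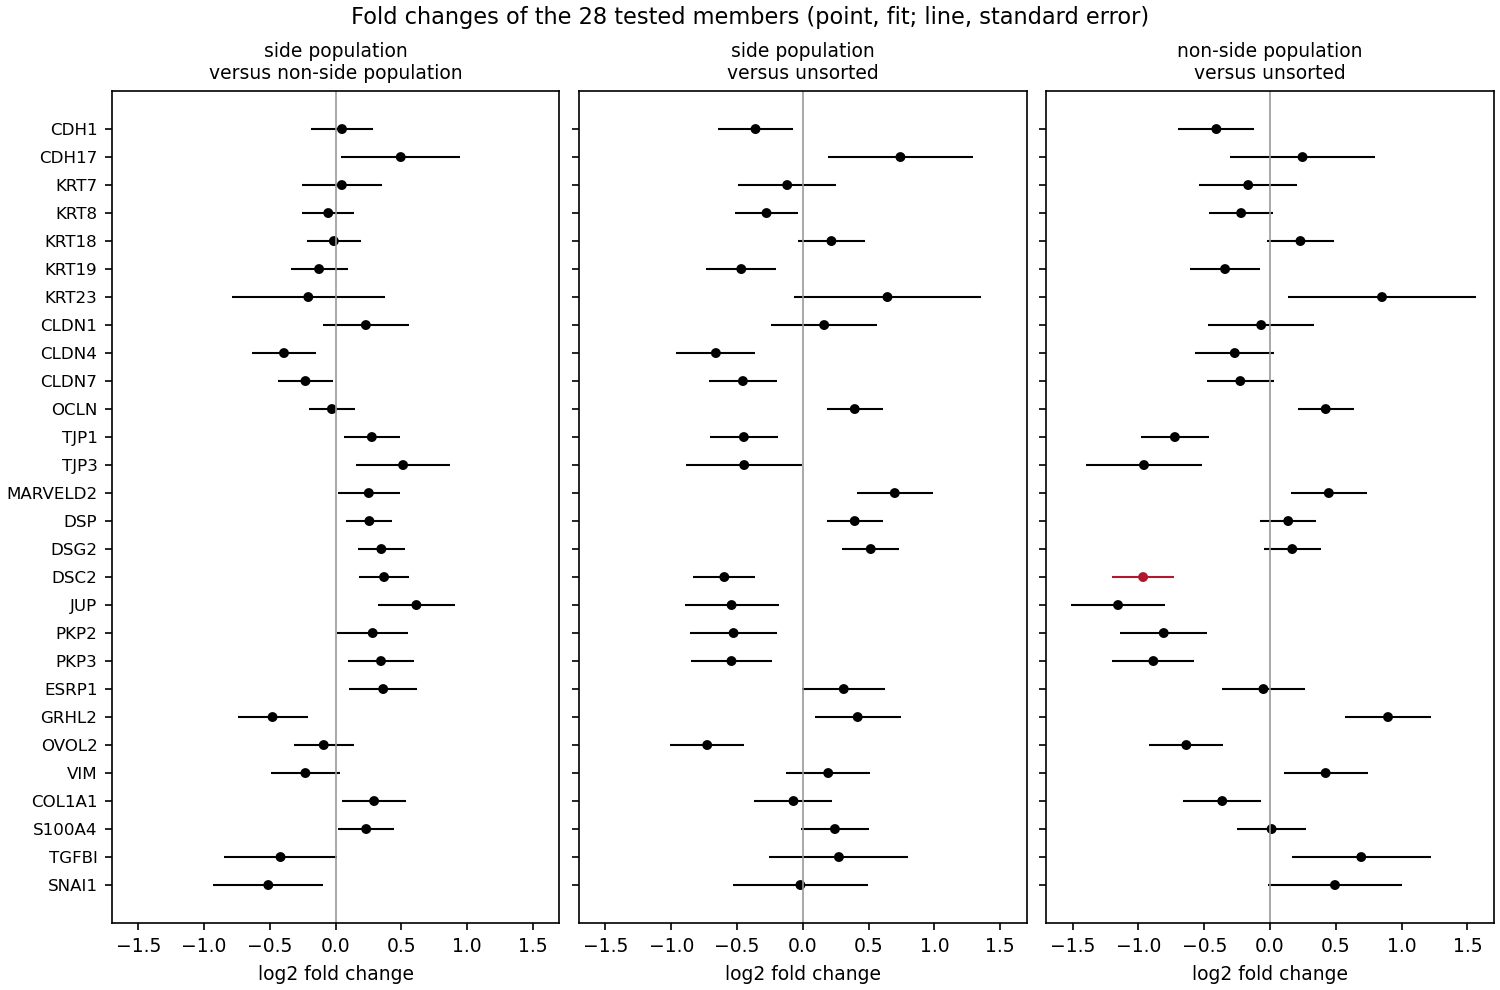
Log2 fold change of each of the 28 tested members in the 3 comparisons, with the fit's standard error as a line; red marks an adjusted p under 0.05. DSC2 in the non-side population against unsorted cells is the only red point, and in the first panel all 6 desmosome genes (DSP to PKP3) lie to the right of 0.

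CDH1, the cadherin of adherens junctions, was read at a modest level on every array. Its intensities were 386.5, 357.7, 265.5 and 299.4 in side population cells, 289, 242, 371.7 and 368.6 in non-side population cells and 467.7 and 372.2 in unsorted cells. The side and non-side population arrays overlapped, and the 4 non-side population arrays lay below both unsorted arrays, some of them only just. Means were 327.3 ± 54.9 in side population cells and 317.8 ± 63.4 in non-side population cells, each with n = 4, and 419.9 ± 67.5 in unsorted cells with n = 2 (± SD). The log2 fold change was 0.05 ± 0.24 between the side and non-side populations, with a 95% interval of -0.45 to 0.55. It was -0.36 ± 0.29 for the side population and -0.41 ± 0.29 for the non-side population, each against unsorted cells, with adjusted p of 0.576 and 0.466 in limma, and the log2 fold changes became -0.20 and -0.25 without unsorted replicate a. The sign between the sorted populations did not hold: it was -0.15 with only arrays labelled AGS and -0.29 with the mean of both CDH1 probe sets, of which the second read only 2.9 to 58.6.

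The other cadherins differed among arrays more than among groups. CDH17, the liver-intestine cadherin, read 9569, 3782, 10589 and 10886 in side population cells, 5148, 2046, 9119 and 11002 in non-side population cells and 4960.4 and 4654 in unsorted cells. Side population replicate b and non-side population replicate b were the lowest of their groups, and the unsorted arrays lay inside both ranges. Its log2 fold change was 0.49 ± 0.45 between the side and non-side populations and did not pass the test in any comparison. CDH3, which encodes P-cadherin, read 3.3 to 15.6, under the array median on all 10 arrays.

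The keratins checked the epithelial label. KRT8 and KRT18 encode the paired filament proteins of simple epithelia, and KRT19 a further partner. KRT8 read 26878, 24719.8, 18790.2 and 26243 in side population cells, 28632, 29832, 18172 and 24670.5 in non-side population cells and 30409.9 and 27599 in unsorted cells. KRT18 read 44868, 38435, 32863 and 36367 in side population cells, 42998, 44656, 24729 and 45092 in non-side population cells and 33453 and 31758 in unsorted cells. KRT19 read 17348, 19241, 15958 and 19644 in side population cells, 22302, 26925, 12795 and 19321 in non-side population cells and 26313 and 23527 in unsorted cells. All 3 were far above the array median on every array, and the epithelial marker EPCAM, not a member, read 17745.2 to 29016.7. Non-side population replicate c was the lowest of its group for all 3 keratins.

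No tested keratin separated the side population from the non-side population. Between the side and non-side populations the log2 fold change was -0.06 ± 0.20 for KRT8, -0.01 ± 0.21 for KRT18 and -0.13 ± 0.22 for KRT19, and each of these turned sign when single arrays were left out. Against unsorted cells KRT19 was -0.47 ± 0.26 in the side population, where the groups did not overlap, and -0.34 ± 0.26 in the non-side population (adjusted p of 0.389 and 0.511 by limma). A second KRT19 probe set, of low intensity, read the other way: 191.3, 293.9, 48.9 and 49.4 in side population cells, 402.9, 521.8, 21.9 and 103.5 in non-side population cells and 9.2 and 14.3 in unsorted cells. The direction for KRT19 against unsorted cells therefore depends on the probe set. KRT8 also lay below unsorted cells in the side population without overlap, at -0.28 ± 0.24 (adjusted p 0.619 by limma), or -0.16 without side population replicate c.

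KRT7, KRT20 and KRT23, keratins of ducts, of intestinal and gastric surface cells and of other glandular epithelia, varied between arrays of 1 group. KRT7 read 361.8, 278.7, 319.8 and 233.2 in side population cells, 406.7, 440.5, 172.2 and 212.1 in non-side population cells and 294.4 and 348.7 in unsorted cells. Non-side population replicates a and b were high and c and d low, so its group range held all the other arrays. KRT20, below the filter, read 127.7, 23.3, 121.7 and 55.4 in side population cells, 151.5, 61.4, 76.4 and 73.3 in non-side population cells and 47.9 and 78.1 in unsorted cells. KRT23 ranged from 92.5 to 700.9, with 691.3, 92.5, 106.4 and 230.4 in side population cells, and its replicate a was the highest in both sorted populations. None of the 5 tested keratins passed in any comparison.

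Among the 8 tight junction genes measured, 7 were tested and none was called. OCLN and MARVELD2 encode the membrane proteins occludin and tricellulin. OCLN read 6161, 6525, 5408 and 4979 in side population cells, 6259, 5542, 5898 and 5732 in non-side population cells and 4297 and 4429 in unsorted cells, so that all 8 sorted arrays lay above both unsorted arrays. Its log2 fold change was 0.39 ± 0.21 in the side population (adjusted p 0.369, limma) and 0.42 ± 0.21 in the non-side population (adjusted p 0.299). A second OCLN probe set ran the other way against unsorted cells, at -0.45 in the side population, without overlap, and -0.38 in the non-side population, while the other two sets were positive. The direction for OCLN against unsorted cells therefore depends on the probe set. MARVELD2 read 4081, 2751, 3752 and 3819.6 in side population cells, 2394, 2208, 3891 and 3886 in non-side population cells and 2084 and 2306 in unsorted cells. All side population arrays lay above the unsorted arrays, while non-side population replicate b lay between them. MARVELD2 had a log2 fold change of 0.70 ± 0.29 in the side population against unsorted cells (adjusted p 0.222), and its second probe set gave -0.60.

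The claudins, which form the seal itself, differed in sign. CLDN4 read 3428, 2929, 1705 and 3404 in side population cells, 3524, 4529, 3742 and 2906 in non-side population cells and 4878 and 3919.5 in unsorted cells. The side population arrays lay below both unsorted arrays, and the non-side population arrays overlapped with both other groups. CLDN4 was -0.66 ± 0.30 in the side population against unsorted cells (adjusted p 0.274 by limma) and -0.39 ± 0.25 between the side and non-side populations. Without side population replicate c, the lowest array of its group, these became -0.43 and -0.16. CLDN7 ranged from 5729.6 to 11738 with log2 fold changes of -0.46 and -0.23 for the side and the non-side population against unsorted cells. CLDN1 ranged from 936 to 3428 and its groups overlapped in every comparison. A second CLDN1 probe set read 324.3 to 941.1 and lay below unsorted cells in the side population without overlap, at -0.92 against 0.16 for the set tested. CLDN3, below the filter, read 9.6 to 61.3.

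TJP1 and TJP3 encode ZO-1 and ZO-3, the scaffold proteins under the tight junction. TJP1 read 11876, 10403, 6789 and 7859.7 in side population cells, 7676, 8776, 7726 and 5909.5 in non-side population cells and 11979.7 and 12624 in unsorted cells. The unsorted arrays were the highest, followed closely by side population replicate a, and the non-side population lay wholly below them. TJP1 was -0.72 ± 0.26 in the non-side population (adjusted p 0.142) and -0.45 ± 0.26 in the side population (adjusted p 0.405), each against unsorted cells by limma. TJP3 read 571.4, 270.4, 611 and 724.5 in side population cells, 259.5, 218.9, 666.4 and 426.7 in non-side population cells and 780.4 and 626.7 in unsorted cells, with its groups overlapping in every comparison and a log2 fold change of -0.96 ± 0.44 in the non-side population against unsorted cells (adjusted p 0.248). The second TJP3 probe set, unlike the set tested, lay below unsorted cells without overlap in the non-side population, at -1.39. It was -1.08 with overlap in the side population. Both TJP3 probe sets and the second TJP1 probe set had the 4 arrays of low 18S signal as their 4 highest.

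The 6 desmosome genes were all measured and all tested. DSC2 and DSG2 encode the desmosomal cadherins, JUP, PKP2 and PKP3 encode the armadillo proteins plakoglobin and plakophilins, and DSP encodes desmoplakin, which anchors the keratin filaments. Between the side and non-side populations the probe sets tested had positive log2 fold changes for all 6, from 0.26 to 0.61 with a median of 0.35, while 57.3% of all genes tested were positive, and none of the 6 passed the test. The sign was not shared by every probe set: the second sets of PKP2 and PKP3 gave -0.56 and -0.31. Nor was it shared by the replicate letters, which are compared further below. Within letters a and b 6 were positive with a median of 0.63, against 0.10 for all genes tested. Within letters c and d 4 were positive with a median of 0.01, against 0.01 for all genes tested. Against unsorted cells the median was -0.53 in the side population and -0.85 in the non-side population, with DSP and DSG2 positive and the other 4 negative in both.

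The regions before the start sites of 4 of these genes are shown, those desmosome genes for which a promoter was matched. PKP2 and PKP3 were not matched to a promoter. The motif CACCTG, or CAGGTG as read on the other strand, is the sequence that SNAIL and ZEB repressors bind. RefSeq promoter sequence was matched for 22 of the 41 members by symbol. Each line gives the 250 bases before the annotated start on the gene's own strand, GRCh38.p14, with that motif in capitals. DSP is on the plus strand at chr6:7541421-7541670, DSG2 on the plus strand at chr18:31497927-31498176, DSC2 on the minus strand at chr18:31102422-31102671 and JUP on the minus strand at chr17:41786712-41786961.
DSP: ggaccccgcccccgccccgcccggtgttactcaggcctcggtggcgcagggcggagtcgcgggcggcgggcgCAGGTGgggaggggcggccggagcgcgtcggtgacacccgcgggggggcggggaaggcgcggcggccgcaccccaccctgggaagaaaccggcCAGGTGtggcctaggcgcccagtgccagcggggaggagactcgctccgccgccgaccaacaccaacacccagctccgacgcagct
DSG2: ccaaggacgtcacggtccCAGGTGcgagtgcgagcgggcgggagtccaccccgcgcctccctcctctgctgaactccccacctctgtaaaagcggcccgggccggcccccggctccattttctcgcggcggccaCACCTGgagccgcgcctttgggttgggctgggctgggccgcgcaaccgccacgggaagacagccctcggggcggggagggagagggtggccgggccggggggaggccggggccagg
DSC2: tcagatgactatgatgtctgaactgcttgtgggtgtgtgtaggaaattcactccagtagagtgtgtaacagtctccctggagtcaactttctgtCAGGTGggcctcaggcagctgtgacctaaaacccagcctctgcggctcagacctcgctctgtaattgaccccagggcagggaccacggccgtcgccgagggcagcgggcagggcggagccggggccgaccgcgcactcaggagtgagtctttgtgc
JUP: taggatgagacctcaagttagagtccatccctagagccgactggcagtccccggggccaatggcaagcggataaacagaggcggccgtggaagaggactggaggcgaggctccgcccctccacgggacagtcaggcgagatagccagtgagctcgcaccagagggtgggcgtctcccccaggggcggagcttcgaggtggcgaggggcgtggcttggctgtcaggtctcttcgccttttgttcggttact

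The motif occurred at 2 places before DSP (first bases at -178 and -85 from the start), at 2 before DSG2 (-232 and -116), at 1 before DSC2 (-156) and at none before JUP. It was present on either strand in 7 of the 22 member promoters (31.8%: DSC2, DSG2, DSP, OCLN, S100A4, TJP1 and ZEB1), against 4781 of 27305 promoters (17.5%) in windows of the same length. The motif AACCGGTT, bound by GRHL factors, was in 0 of the 22 and in 29 of all promoters (0.106%). A match describes letters in this window and not a bound site.

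DSC2 carried the only call. It read 3329, 2629.7, 2899 and 2471 in side population cells, 1768, 2358, 2232 and 2424 in non-side population cells and 4046 and 4483 in unsorted cells. The 3 groups did not overlap with one another: unsorted cells were highest, the side population was between and the non-side population was lowest, although replicate d of both sorted populations read almost the same. Means were 2195 ± 296 in non-side population cells and 4265 ± 309 in unsorted cells (SD, n = 4 and n = 2). The gene fell in the non-side population by 0.96 on the log2 scale (SE 0.24, 0.512 times the unsorted level, limma adjusted p = 0.0373). In the side population it was -0.60 ± 0.24 against unsorted cells (adjusted p 0.199), and between the side and non-side populations 0.37 ± 0.19 (adjusted p 0.997).

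The DSC2 call has limits that the values show. Both unsorted arrays had a low 18S signal, as did side population replicate d and non-side population replicate c, which read 2471 and 2232. The part of the 18S signal in this call was not tested. Of the 3 other DSC2 probe sets, 2 were also lower in the non-side population with no overlap (-1.28 and -2.29), and the third, which read 3.6 and 103.3 in unsorted cells, gave 1.88. The call was lost with the mean of all 4 probe sets (adjusted p 0.224), with only the groups compared in the fit (0.0781) and without any one of side population replicate d (0.0527), non-side population replicate a (0.0892) or d (0.0573), or unsorted replicate a (0.348) or b (0.337). The fold change stayed negative in all 21 alternatives, from -1.04 to -0.66.

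JUP had the largest fold change of the 6 desmosome genes in both comparisons with the non-side population. It read 7795, 3985, 4267 and 4734 in side population cells, 3096, 1862, 4415 and 4485 in non-side population cells and 8090.0 and 6565 in unsorted cells. Side population replicate a, whose 3' to 5' ratio was high, read close to the unsorted arrays, and non-side population replicates a and b read below every other array. JUP was -1.16 ± 0.36 in the non-side population against unsorted cells (adjusted p 0.0887), -0.54 ± 0.36 in the side population (adjusted p 0.472) and 0.61 ± 0.29 between the side and non-side populations (adjusted p 0.997), all by limma. The last value was 0.40 without side population replicate a and 0.34 without non-side population replicate b.

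The plakophilins showed a like order of arrays. PKP2 read 2899, 2756, 2825 and 3398 in side population cells, 1965, 1483, 4107 and 2929.9 in non-side population cells and 4138 and 4397 in unsorted cells. PKP3 read 2103, 1960.1, 1577 and 2253 in side population cells, 1134, 1128, 1855 and 2366 in non-side population cells and 3027 and 2687 in unsorted cells. For both genes every sorted array lay below both unsorted arrays, and non-side population replicates a and b were the lowest. Against unsorted cells PKP2 was -0.81 ± 0.33 in the non-side population (adjusted p 0.198) and PKP3 was -0.89 ± 0.31 (adjusted p 0.13), with -0.53 and -0.54 in the side population. The second sets of both genes were also lower than unsorted cells without overlap in both sorted populations. Both PKP2 probe sets had the 4 arrays of low 18S signal as their 4 highest.

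DSG2 and DSP ran the other way against unsorted cells. DSG2 read 9116, 7588, 8692 and 6952 in side population cells, 6959, 6450.2, 5527 and 6430.5 in non-side population cells and 5558 and 5686 in unsorted cells. DSP read 24872, 26276, 20243 and 20912 in side population cells, 17330.3, 18669, 18227 and 23053 in non-side population cells and 16420.3 and 18548 in unsorted cells. The side population lay above unsorted cells for both, and the non-side population overlapped with unsorted cells. DSG2 was 0.52 ± 0.22 in the side population against unsorted cells (adjusted p 0.232 by limma) and 0.35 ± 0.18 between the side and non-side populations, while DSP was 0.39 ± 0.21 (adjusted p 0.365) and 0.26 ± 0.17. With only arrays labelled AGS the DSP values were 0.24 and 0.10. A second DSG2 probe set gave -0.63 in the side population against unsorted cells and 0.42 between the sorted populations.

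**Figure D2:**
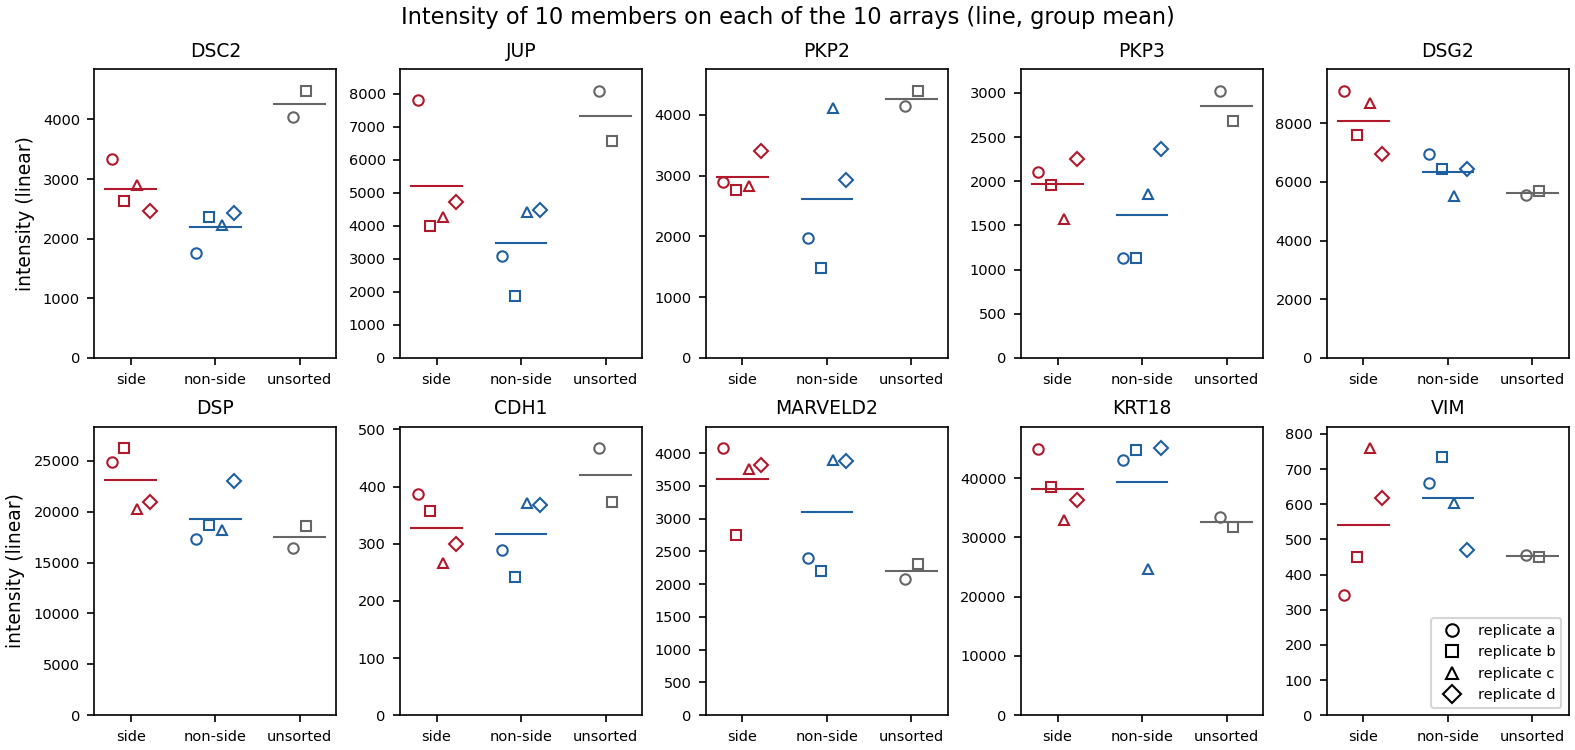
Linear intensity of 10 members on each array, with the group mean as a line and the replicate letter as the symbol; the axes start at 0. DSC2 shows the 3 groups apart, JUP, PKP2 and PKP3 show non-side population replicates a and b at the bottom, and KRT18 shows non-side population replicate c apart from its group.

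**Figure D3:**
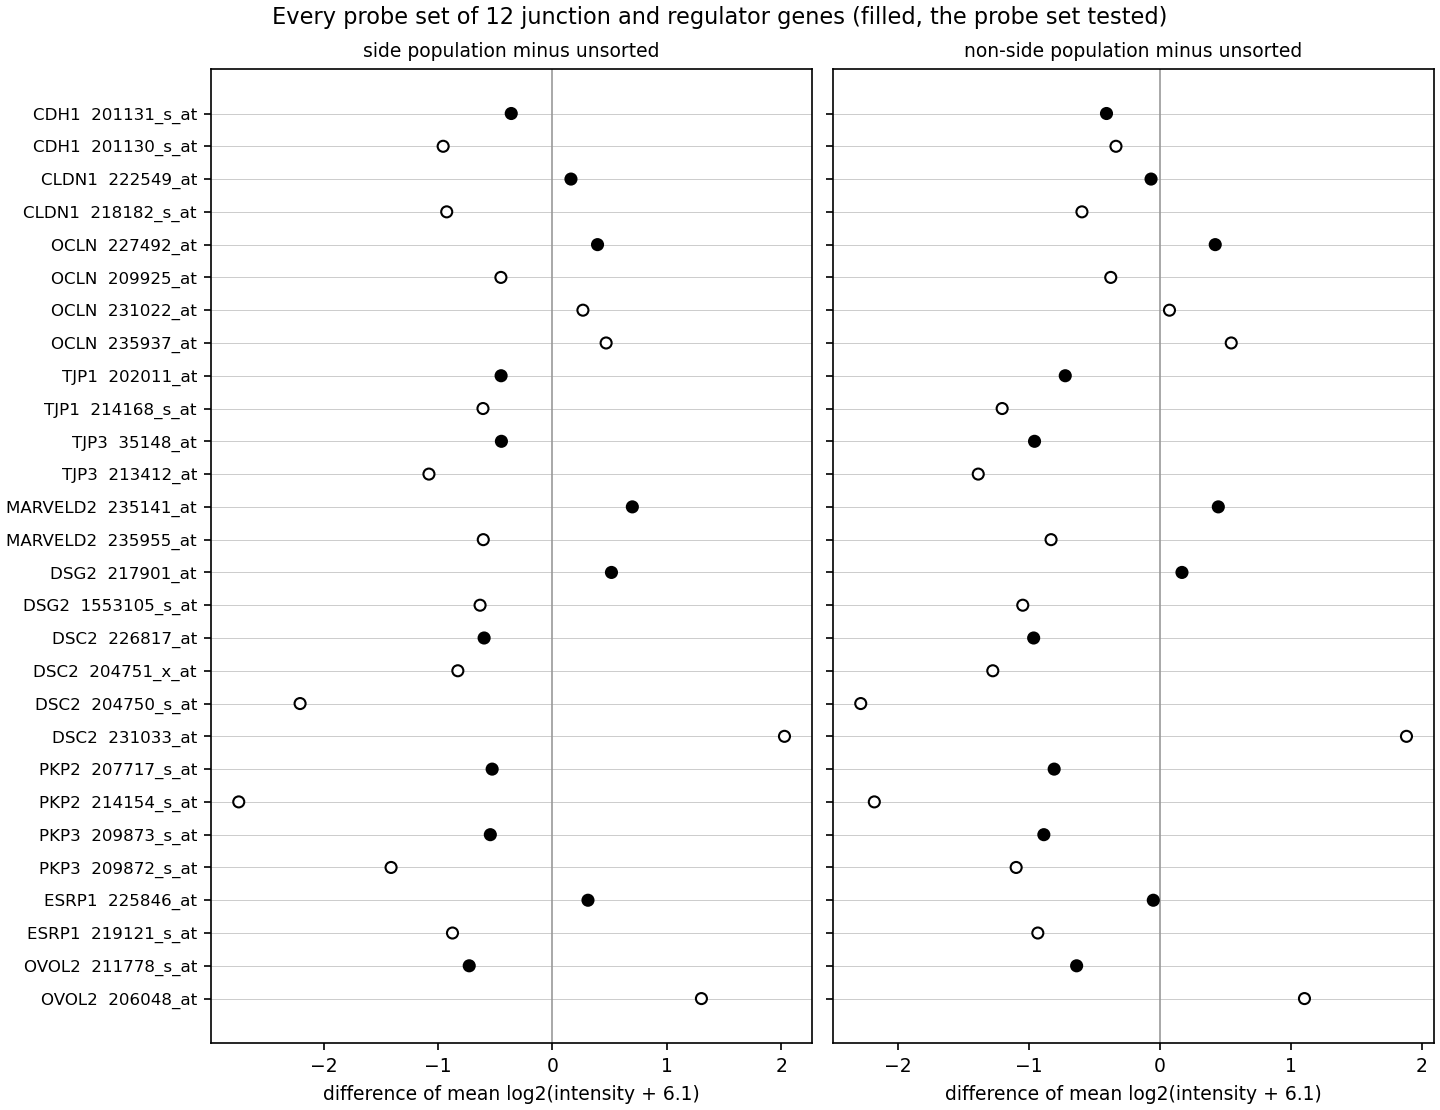
Difference of mean log2(intensity + 6.1) from unsorted cells for every probe set of 12 junction and regulator genes; filled points are the probe sets tested. DSG2, MARVELD2, OVOL2, DSC2 and OCLN have probe sets on both sides of 0 in both panels and ESRP1 and CLDN1 in the side population panel, while all sets of TJP1, TJP3, PKP2 and PKP3 lie to the left.

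Among regulators of the epithelial state, GRHL2 and OVOL2 encode transcription factors that maintain epithelial genes, and ESRP1 encodes a splicing factor of epithelial cells. GRHL2 read 863.3, 829.6, 728.3 and 524.8 in side population cells, 1339, 1013, 619.1 and 1243 in non-side population cells and 477.3 and 611.7 in unsorted cells. All non-side population arrays lay above both unsorted arrays, replicate c only just. GRHL2 was 0.90 ± 0.33 in the non-side population against unsorted cells (adjusted p 0.144 by limma) and -0.48 ± 0.27 between the side and non-side populations. OVOL2 read 1664, 1286, 1664 and 1488 in side population cells, 1921, 1805, 1028 and 1911 in non-side population cells and 2463 and 2568 in unsorted cells. All sorted arrays lay below both unsorted arrays, at -0.73 ± 0.28 in the side population (adjusted p 0.189) and -0.64 ± 0.28 in the non-side population (adjusted p 0.228), but its second, dimmer probe set gave 1.30 and 1.10. ESRP1 read 4184, 3510.2, 4329 and 3756 in side population cells, 2152, 2166, 3900.5 and 4816 in non-side population cells and 3151 and 3185 in unsorted cells, with non-side population replicates a and b lowest and d highest. The second ESRP1 set differed: 2099, 2004, 1913 and 2646 in side population cells, 2419, 1085, 2792 and 2459 in non-side population cells and 3594 and 4318 in unsorted cells. On it both sorted populations lay below unsorted cells without overlap, at -0.87 and -0.93, against 0.31 and -0.05 for the set tested, and non-side population replicate a was not low.

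The mesenchymal members were mostly near background. VIM, which encodes vimentin, the intermediate filament of mesenchymal cells, read 342.8, 448.6, 760.4 and 616.5 in side population cells, 660.3, 734.4, 604.9 and 468.9 in non-side population cells and 456.2 and 449.6 in unsorted cells. The side population arrays spanned both other groups, and all non-side population arrays lay above unsorted cells. VIM was -0.23 ± 0.26 between the side and non-side populations, 0.19 ± 0.32 in the side population and 0.42 ± 0.32 in the non-side population against unsorted cells (adjusted p 1, 0.822 and 0.499 by limma). With only arrays labelled AGS the value between the sorted populations was 0.17.

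The other 4 mesenchymal members that passed the filter encode a collagen chain (COL1A1), a calcium-binding protein (S100A4), a matrix protein induced by TGF-beta (TGFBI) and a SNAIL repressor (SNAI1). S100A4 ranged from 1793 to 2921, COL1A1 from 1018 to 2010.4, TGFBI from 109.3 to 507.2 and SNAI1 from 369 to 1894. None was called and their groups overlapped in all 3 comparisons. TGFBI read 331.7, 241.4, 136.3 and 109.3 in side population cells and 507.2, 357.2, 134.5 and 161.3 in non-side population cells, so replicates a and b exceeded c and d in both. Of the 5 COL1A1 probe sets all were positive between the side and non-side populations, at 0.07 to 0.41, and against unsorted cells they differed in sign. The COL1A1 sets not tested read lower, at 224.3 to 549, 249.8 to 494.9, 35.9 to 105.3 and 11.8 to 64.2.

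FN1, ZEB1 and SNAI2, which encode fibronectin and repressors of CDH1, did not pass the filter. FN1 read 78.1, 68.9, 6.7 and 32.6 in side population cells, 24.9, 34.5, 45.1 and 47.5 in non-side population cells and 45.3 and 28.5 in unsorted cells. ZEB1 read 42.9, 44.4, 6 and 18 in side population cells, 8.8, 31.7, 40.7 and 7 in non-side population cells and 24.1 and 77.3 in unsorted cells. SNAI2 read 15.6, 31.7, 5 and 28.6 in side population cells, 21.7, 15.9, 22 and 7.3 in non-side population cells and 28 and 25 in unsorted cells. SNAI2 was under the array median on all 10 arrays, and FN1 and ZEB1 on 9 of 10. CDH2, SPARC, COL1A2, ZEB2 and TWIST1 were also under the array median on all 10 arrays, with CDH2 at 6.4 to 52 and TWIST1 at 6.6 to 44.

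The epithelial and mesenchymal members were then set side by side on each array, as the mean log2(intensity + 6.1) of the 26 epithelial minus that of the 13 mesenchymal members. The difference was 4.38, 4.06, 4.79 and 4.36 in side population cells, 4.10, 3.65, 3.91 and 4.40 in non-side population cells and 4.51 and 4.47 in unsorted cells. Since different probe sets share no scale, only the change of this difference between arrays is read: the non-side population lay below unsorted cells without overlap, while the side population overlapped with both. Group means differed by 0.38 (SE 0.22) between the side and non-side populations, by -0.09 (SE 0.15) between the side population and unsorted cells and by -0.48 (SE 0.16) between the non-side population and unsorted cells. With only the 28 tested members these values were 0.25, -0.20 and -0.45, and the side population then lay below unsorted cells without overlap while the non-side population overlapped. No test was made of these means, since most mesenchymal members were near background.

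By role, the mean of the 6 desmosome genes was lower in both sorted populations than in unsorted cells, without overlap. It was 12.490, 12.21, 12.18 and 12.25 in side population cells, 11.72, 11.60, 12.12 and 12.21 in non-side population cells and 12.499 and 12.495 in unsorted cells. Non-side population replicates a and b were the lowest, and side population replicate a was almost at the level of the unsorted arrays. The mean hides a split by gene. In the side population DSP and DSG2 lay above unsorted cells without overlap, at 0.39 and 0.52, while the other 4 were negative. Among all single genes tested, 36.7% in the side population and 31.9% in the non-side population did not overlap with unsorted cells. The keratin mean differed by -0.11 (SE 0.30) between the side and non-side populations and by 0.02 (SE 0.20) and 0.13 (SE 0.24) for the side and non-side populations against unsorted cells. The difference of tight junction means was -0.36 (SE 0.11) between the non-side population and unsorted cells, without overlap, and -0.20 (SE 0.11) with overlap over the 7 tested genes alone.

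**Figure D4:**
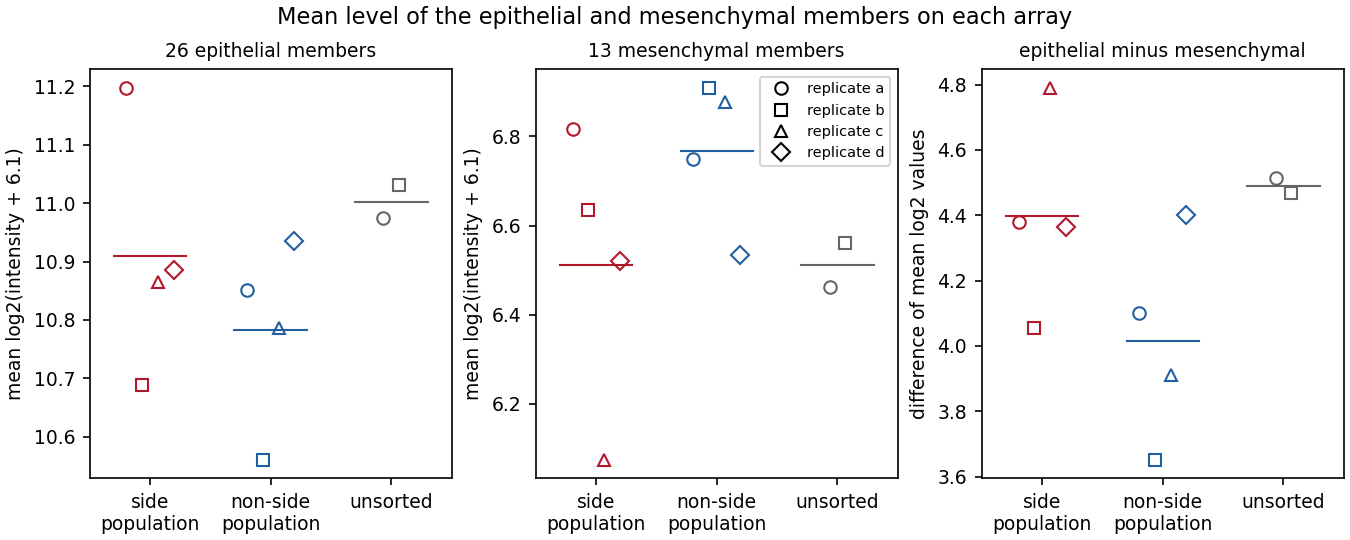
Mean log2(intensity + 6.1) of the epithelial members, of the mesenchymal members, and their difference, per array, with group means as lines. In the right panel the unsorted arrays sit at 4.51 and 4.47, and all 4 non-side population arrays sit lower, from 3.65 to 4.40; the axes do not start at 0.

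The side and non-side populations were also compared within replicate letters. In a fit that kept letters a and b apart from letters c and d, added after the data were seen, 3 of 28 members were called higher in the side population within letters a and b, against 905 of 9888 genes (9.15%) called in either direction and 7.12% called higher. They were ESRP1 at 0.83 ± 0.21 (limma adjusted p = 0.0338), JUP at 1.21 ± 0.31 (0.0361) and PKP3 at 0.84 ± 0.23 (0.0425). The second probe sets gave 0.34 for ESRP1 and 0.11 for PKP3 within letters a and b. VIM was -0.82 ± 0.25 (adjusted p 0.0571) and PKP2 0.73 ± 0.23 (0.0618), while the second PKP2 set gave -0.57. Within letters c and d 0 members and 0 genes (0%) were called by limma, 437 genes (4.42%) having an unadjusted p under 0.05, with ESRP1 at -0.10 ± 0.21, JUP at 0.01 ± 0.31, PKP3 at -0.15 ± 0.23 and VIM at 0.36 ± 0.25.

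The difference between the letters did not itself pass for any gene: 0 of 9888 by limma, 2655 (26.9%) with an unadjusted p under 0.05. Among members it was -1.18 for VIM (adjusted p 0.106), 0.93 for ESRP1 (0.11), 0.99 for PKP3 (0.114), 1.20 for JUP (0.128) and 0.87 for CDH1 (0.162). Side population replicates a and b are those whose source label names no line, so within these letters the population and the label cannot be told apart. Within letters a and b 0 members were called without side population replicate a, against 0.0101% of all genes tested, and 0 without non-side population replicate b, against 0%. Without side population replicate b 3 were called (CDH17, ESRP1 and JUP), against 5.72% of all genes tested, and without non-side population replicate a 2 (CDH17 and JUP), against 5.17%. On the probe sets tested DSG2 was 0.31 and 0.38 and GRHL2 -0.46 and -0.50 in letters a and b and in letters c and d, with little between them. The second DSG2 set did not hold to this, at 1.21 within letters a and b and -0.38 within letters c and d.

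**Figure D5:**
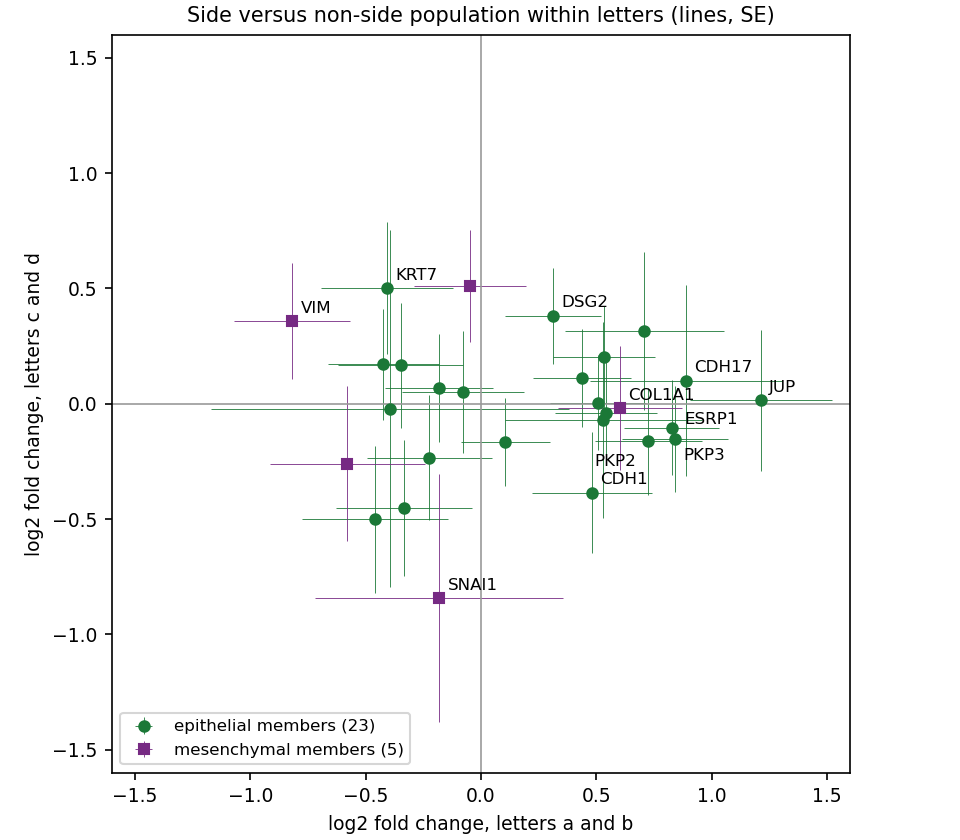
Log2 fold change of the side population over the non-side population within letters a and b (horizontal) and within letters c and d (vertical) for the 28 tested members, with standard errors. JUP, ESRP1, PKP3 and PKP2 lie far to the right and near 0 on the vertical axis, and VIM lies to the left.

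The low 18S arrays coincided with several member probe sets. Of 43 member probe sets at or above the filter level, 7 (16.3%) had these 4 arrays as their 4 highest, against 966 of 17314 (5.58%) probe sets with 1 gene. They belonged to TJP1, TJP3 (both sets), DSG2 (the second set), PKP2 (both sets) and ESRP1 (the second set). The part of the 18S signal in these differences was not tested.

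Other genes of the same pathways were described by counts. For these, and for the markers linked to the lines, only the 1 probe set chosen per gene was read. Whether further probe sets of these genes agree in sign was not checked. Among 11 tested adherens junction and polarity genes 0 were called between the side and non-side populations, and CTNNB1, which encodes beta-catenin, rose against unsorted cells in both the side population (1.31 ± 0.27, limma adjusted p 0.0236) and the non-side population (1.18 ± 0.27, adjusted p 0.0284). CTNNB1 read 10862, 11566, 6769 and 13141 in side population cells, 8979.5, 9395, 10265 and 9029.8 in non-side population cells and 3500.0 and 4918 in unsorted cells, with every sorted array above both unsorted arrays. NECTIN2, an adhesion molecule of adherens junctions, lay below both unsorted arrays on every sorted array but did not pass the test, at -1.14 ± 0.40 in the side population (adjusted p 0.15) and -1.40 ± 0.40 in the non-side population (adjusted p 0.0679). NECTIN1, a relative of it, was 0.66 ± 0.33 in the side population and CTNNA1, for alpha-catenin, -0.44 ± 0.26 in the non-side population. Between the sorted populations the smallest p belonged to CTNNA1 at 0.55 ± 0.21, VCL, for vinculin, at 0.43 ± 0.22 and DLG1, a polarity scaffold, at 0.54 ± 0.31.

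Among 13 other tight junction genes 0 were called in any comparison, and the lowest adjusted p by limma was 0.157. Those of smallest p between the sorted populations were PARD3 at 0.42 ± 0.23, CGN, for cingulin, at 0.53 ± 0.32 and MARVELD3 at 0.34 ± 0.21. In the side population against unsorted cells they were CLDN23 at -0.53 ± 0.32, CRB3 at -0.44 ± 0.28 and CLDN6 at 0.71 ± 0.48, and in the non-side population CLDN23 at -0.84 ± 0.32, CLDN6 at 1.09 ± 0.48 and LSR at -0.77 ± 0.35. The 4 other desmosome genes tested were all positive between the sorted populations with a median of 0.30 and 0 called: EVPL at 0.65 ± 0.33, PPL at 0.38 ± 0.23, PKP4 at 0.22 ± 0.20 and PERP at 0.08 ± 0.20. Their median was 0.66 within letters a and b and -0.02 within letters c and d, where only 1 was positive. Against unsorted cells 0 of these 4 were called, with PKP4 at 0.49 ± 0.25, PERP at 0.20 ± 0.25 and PPL at -0.02 ± 0.28 in the side population and EVPL at -0.65 ± 0.40, PPL at -0.40 ± 0.28 and PKP4 at 0.27 ± 0.25 in the non-side population.

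Among 19 other epithelial genes GRHL3, a relative of GRHL2, fell against unsorted cells in the side population (-1.27 ± 0.28, limma adjusted p 0.0312) and in the non-side population (-1.28 ± 0.28, adjusted p 0.0241). Next by p, and not called, were the transcription factors ELF3 at -0.87 ± 0.28 and EHF at 2.21 ± 0.79 in the side population. In the non-side population they were ST14, a membrane protease of epithelia, at -0.95 ± 0.31 and EHF at 2.31 ± 0.79. EHF read 49.7 and 36.3 in unsorted cells, 47 in side population replicate b and 70 in non-side population replicate b. These 4 values were under the array median, so the EHF folds rest on a low level in unsorted cells. The side population overlapped with unsorted cells for EHF. Between the sorted populations 0 were called, with ST14 at 0.77 ± 0.26, KRT80 at 0.39 ± 0.21 and LAMB3, a laminin chain, at 0.37 ± 0.27.

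Among 11 other mesenchymal genes AXL, a receptor tyrosine kinase, rose against unsorted cells in both sorted populations (2.07 ± 0.38 in the side population, limma adjusted p 0.0122, and 2.15 ± 0.38 in the non-side population, adjusted p 0.00786). AXL read 358.8, 247.2, 275.9 and 300.8 in side population cells, 256, 321.5, 384.7 and 294 in non-side population cells and 113.9 and 36.4 in unsorted cells. All sorted arrays lay above the unsorted arrays, one of which was under its array's median, so the fold rests on a low level there. CCN2, a secreted matrix protein, was 1.31 ± 0.42 in the side population (adjusted p 0.113) and 1.58 ± 0.42 in the non-side population (adjusted p 0.0509). PDGFRA, a growth factor receptor, was -1.07 ± 0.37 (adjusted p 0.138) and -1.38 ± 0.37 (adjusted p 0.0533) in the same comparisons. Between the sorted populations 0 were called, with ITGA5, an integrin chain, at 0.54 ± 0.26, THBS1, for thrombospondin, at 0.39 ± 0.36 and PDGFRA at 0.31 ± 0.30.

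The 4 markers linked to the lines were read beside these results. CEACAM5 read 3072, 1603, 2080.5 and 2340.0 in side population cells, 2912, 1189.6, 3374 and 3180.1 in non-side population cells and 339.6 and 477 in unsorted cells, and was 2.44 ± 0.39 in the side population (limma adjusted p 0.00782) and 2.60 ± 0.39 in the non-side population (adjusted p 0.00307) against unsorted cells. MET, for which MKN 45 is known to carry an amplification, read 3875, 2232, 3722 and 2586 in side population cells, 2319, 1334, 3346 and 2842 in non-side population cells and 1269.5 and 1218 in unsorted cells. Every sorted array lay above both unsorted arrays for both genes. CEACAM6 ran the other way, with 8642.4 to 9662.1 in side population cells, 8443.3 to 10115.9 in non-side population cells and 12208.3 and 12700.7 in unsorted cells, at -0.45 ± 0.20 (adjusted p 0.264) and -0.45 ± 0.20 (adjusted p 0.229). CDH17, the other marker, overlapped among all 3 groups as given above. The part of these markers in the member results was not tested.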

How the data were processed

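Total RNA from 10 samples of gastric cancer cells was measured on single-channel arrays of 54675 probe sets. Each deposited value was a linear intensity (0.1 to 74993.2). The submitters' processing notes name GCOS 1.4 but no algorithm. Means after trimming 2% from both ends were 500.065 to 500.095, so the authors' intensities were already scaled, and none was added. Detection calls were not used. The constant 6.1 was added before log2 of the deposited intensities, which understates changes of low genes.

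Probe sets with 1 gene symbol numbered 41097 (1801 had several, 11777 none), and 41043 matched the reference gene table. The set of highest mean log2 represented each of 19775 genes, and the 9888 at or above the median entered 1 linear model in limma 3.58.1 (R 4.3.3), with 3 groups, no covariate and a trended eBayes step, with Benjamini-Hochberg adjustment over all of them. Groups were taken from the labels. The number of arrays limits the precision. Same-letter arrays of the sorted populations correlated at 0.212, 0.498, -0.117 and 0.364 in their deviations, and arrays of different letters at -0.476 to 0.429. The titles name no shared culture, batch or day, so letters were not taken as pairs. These values do not exclude a pairing, and a fit with the letters as a block is given below.

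The text names CDH1, KRT8, KRT18, KRT19, KRT7, KRT20, VIM, FN1, ZEB1 and SNAI2, members called and the 6 of smallest p in each comparison, and in other lists the 3 of smallest p; other members are given by range, and some genes outside this rule were named after their values were seen. Members and lists were chosen with earlier results of these data known. Alternatives were another constant (1 or 32), quantile normalization, no filter or one at the 75th percentile, other probe set rules, no trend, only the groups compared, only arrays labelled AGS, the replicate block and leaving out each array. Sequences came from RefSeq (GRCh38.p14).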

Additional observations from a re-analysis of the deposited data

Results flagged for a closer look

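In 78 groups of 4 arrays (39 members in each sorted population), the highest or lowest array stood apart from the other 3 by more than Dixon's 95% limit in 5, and chance flags about 1 in 20 groups. CDH17 read 3782.3 in side population replicate b, against 9569.3 to 10886.3 on the other 3 arrays. S100A4 read 1792.6 on the same array, against 2900.1 to 2921.3. On non-side population replicate c, KRT18 read 24729.1, against 42997.9 to 45091.6, and OVOL2 read 1027.9, against 1805.3 to 1921.4. CLDN3, below the filter, read 24.9 on that array, against 9.6 to 10.9. Non-side population replicate c is 1 of the 4 arrays with a low 18S signal.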

How the results depend on the processing

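The count of members called was 0 between the side and non-side populations and 0 between the side population and unsorted cells under all the settings listed with the methods. Within letters a and b, a split added after the data were seen, 3 were called between the sorted populations, and 0 to 3 with 1 of these 4 arrays left out (3 without side population replicate b, 2 without non-side population replicate a). Between the non-side population and unsorted cells the count was 0 instead of 1 with the mean of all probe sets and with only the groups compared, and 0 to 4 with 1 array left out. The 4, without non-side population replicate c, were DSC2, GRHL2, JUP and PKP2, against 651 genes (6.58%). With the replicate block 7 were called (DSC2, GRHL2, JUP, PKP2, PKP3, TGFBI and TJP3), against 967 genes (9.78%). The titles give both sorted populations the same replicate letters but name no shared culture, batch or day. The block also put unsorted arrays a and b with the sorted arrays of the same letter, although their titles name other replicate groups. No other count of members changed under the replicate block.

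Some log2 fold changes turned sign, none of them called. Between the sorted populations CDH1 was -0.29 with the mean of all probe sets, and with only arrays labelled AGS CDH1 was -0.15, KRT7 -0.059 and VIM 0.17. With 1 array left out the ranges were -0.073 to 0.14 for CDH1, -0.21 to 0.060 for KRT8, -0.22 to 0.065 for KRT18, -0.33 to 0.026 for KRT19 and -0.19 to 0.25 for KRT7. Against unsorted cells, with the mean of all probe sets, KRT19 was 1.12 in the side population and 1.42 in the non-side population, OVOL2 0.29 and DSG2 -0.058 in the side population. KRT7 was 0.21 and 0.17 with the replicate block, and with 1 array left out it ranged from -0.24 to 0.00076 in the side population and from -0.37 to 0.070 in the non-side population. The cause was not tested. The epithelial minus mesenchymal difference moved by less than the pooled SD of 0.29 under every alternative run. That SD is not small beside the differences themselves (0.38, -0.09 and -0.48), so this does not show them to be stable. Between the side population and unsorted cells the difference was 0.02 with only arrays labelled AGS, against -0.09. The 2 unsorted arrays and the lack of detection calls limit all comparisons with unsorted cells.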
